A study of Mus musculus with 12 samples.

Results

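The mTOR pathway genes described here are the subunits of the mTOR complexes, the TSC and Rheb switch, the lysosomal Rag machinery with its nutrient sensors, and the main translation, autophagy and kinase effectors. They were selected by gene symbol from a fixed list of 52 genes. Of these, 51 were found under the same symbol among the 24255 genes of the deposited table, and Castor1 was found under its older symbol Gatsl3. RNA from whole mouse ovaries was sequenced. The CKO ovaries (n = 5 libraries) lacked Mtor in oocytes through a conditional knockout mediated by Gdf9-Cre, a recombinase driven by an oocyte promoter. For the wild-type (WT) ovaries (n = 7 libraries), the labels name no floxed allele or transgene. All mice were of the C57BL/6 strain, were aged 6 months and were given equine chorionic gonadotropin (5 IU), which stimulates follicles, 46 h before the ovaries were taken. Somatic ovarian cells keep Mtor in this model, and the labels do not say which animal each sample came from, so the p-values reflect differences among libraries that may be technical replicates.

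mTOR is a kinase that works in a pair of complexes. mTORC1, defined by the subunit Raptor, promotes protein synthesis and restrains autophagy when amino acids and growth factors are plentiful, and mTORC2, defined by Rictor, phosphorylates kinases such as AKT and SGK1. Growth factors reach mTORC1 through the TSC complex and the small GTPase Rheb, and amino acids reach it through Rag GTPases held on the lysosome by the Ragulator complex. In the ovary the pathway is known for controlling the activation of dormant follicles and the growth of oocytes and granulosa cells.

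Levels are in FPKM as deposited (fragments per kilobase of transcript, scaled by library size), so that they can be compared between genes. The total fragments of each library are unknown here. From the steps between the lowest values, sequencing depth differed by up to 2.18-fold among the 12 libraries, at 1.14 ± 0.305 in CKO (SD, n = 5) and 1.10 ± 0.209 in WT (SD, n = 7) relative to WT replicate 1. On a 1 kb transcript, 1 fragment gave 0.300 to 0.653 FPKM, and values under 1 FPKM rest on few fragments. For 1 WT column the name matches more than 1 WT sample, and it is called the unnumbered WT library. It stood apart from the other WT libraries in several marker genes, with Cyp17a1 at 1.46 FPKM, against 41.2 to 267 FPKM, and Cyp19a1 at 1.26 FPKM, against 28.8 to 88.9 FPKM. Inhba and Lhcgr were also lower in it, at 39.4 FPKM, against 194 to 501 FPKM, and 45.9 FPKM, against 288 to 373 FPKM. Amh was higher in it, at 309 FPKM, against 35.1 to 126 FPKM. Of 12 oocyte markers, 9 could be tested, of which 5 fell and 0 rose, and the summed level of the 12 was 8.73 to 56.5 FPKM in CKO and 58.7 to 206 FPKM in WT. All 10 granulosa cell markers fell, with sums of 275 to 579 FPKM in CKO and 1217 to 2201 FPKM in WT. Of 10 macrophage markers 8 rose, with sums of 1964 to 5718 FPKM in CKO and 787 to 1523 FPKM in WT, and of 6 stromal markers 3 rose, with sums of 1385 to 1827 FPKM in CKO and 502 to 727 FPKM in WT. None of 6 theca and luteal markers passed the test, nor did the 3 of 4 erythroid markers that could be tested. The theca gene Cyp17a1 was at 7.95 to 30.2 FPKM in CKO, below all WT libraries except the unnumbered one (log2 fold change -1.70, adjusted p = 0.193, limma). The oocyte markers Zp1, Zp2 and Ddx4 were too low to be tested. Of 6 markers of muscle, nerve, fat and oviduct, 2 could be tested, of which the fat gene Plin1 fell. The oviduct gene Ovgp1 was at 252 and 81.9 FPKM in CKO replicates 2 and 3, against 1.54 to 1.87 FPKM in the other CKO libraries and at most 1.45 FPKM in WT, and did not pass. In whole ovaries, fewer cells of a type and less RNA per cell cannot be told apart.

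Across the pathway, 7 genes of the Rag machinery, its regulators and nutrient sensors, and Tfe3 were higher in CKO ovaries. Mlst8 was lower, and the kinase gene itself and most effector genes did not pass the test. Of the 51 members that could be tested, 8 rose and 1 fell. The test was limma on log2(FPKM + 1), with a threshold of 0.05 on the p adjusted by Benjamini-Hochberg over all 13168 genes tested. Among all genes tested, 8.7% rose and 7.59% fell, against 15.7% and 1.96% of the members. In either direction 16.3% of all genes tested passed, so that the 9 calls among 51 members (17.6%) are together a share close to the background. Whether the split by direction differs from the background was not tested. The rises were in Flcn, Fnip2, Nprl3, Fnip1, Tfe3, Lamtor5, Castor1 and Rragc, and the fall was in Mlst8. Of these 9 calls, only those of Flcn, Fnip1, Fnip2 and Nprl3 held in each of the 12 fits that leave out 1 library. In the group of GATOR1, folliculin complex and sensors, 5 of 10 genes rose, as did 2 of the 9 Rag and Ragulator genes, and 1 of the 5 autophagy and lysosome genes. No member of the TSC and Rheb group (4 genes), the translation group (7 tested) or the upstream and AGC kinase group (5 genes) passed. The median log2 fold change of the 51 members was 0.01, against -0.01 over all genes tested. CKO and WT values did not overlap in 5 members, of which Flcn, Fnip2 and Nprl3 were higher and Mlst8 and Depdc5 lower in CKO. This compares with 4.09% of all genes tested that were higher without overlap and 3.65% that were lower, 7.73% together.

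**Figure D1:**
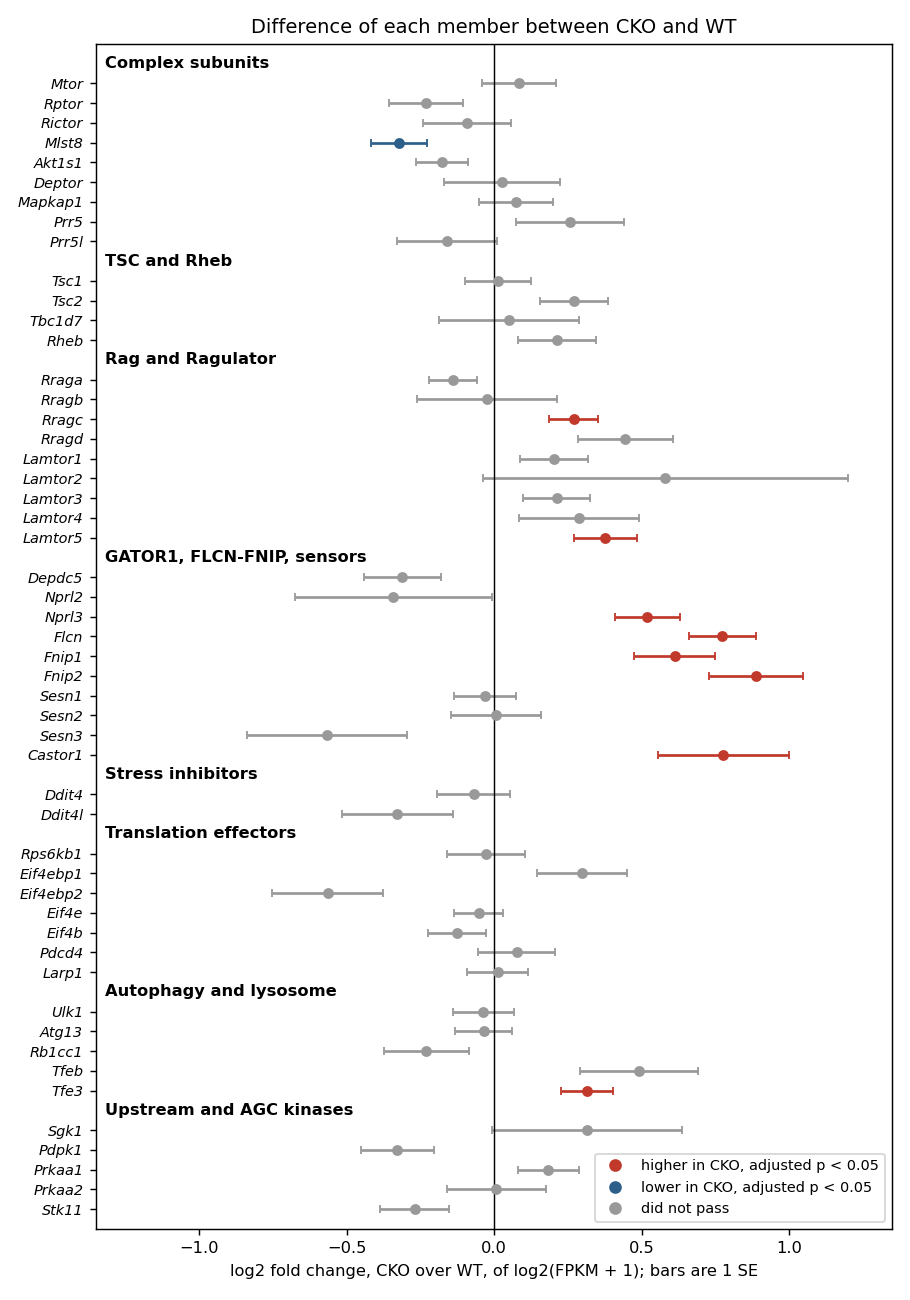
The log2 fold change of CKO over WT on the log2(FPKM + 1) scale (x axis) of the 51 members tested, grouped by role, with bars of 1 SE. Flcn, Fnip1, Fnip2, Nprl3, Castor1, Lamtor5, Rragc and Tfe3 lie to the right as called rises, and Mlst8 is the called fall.

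Folliculin (Flcn) and its partners Fnip1 and Fnip2 form the complex that activates RagC and RagD on the lysosome. In cultured cells, members of this module are known targets of the transcription factors TFEB and TFE3, which bind E-boxes with the core CACGTG. The 250 bases before the annotated start of these 3 genes and of Rragc are therefore shown for the genes whose rises are described next (RefSeq, GRCm38.p6, printed 5′ to 3′ on the strand of the gene). Capitals mark CACGTGA, which is TCACGTG on the other strand. The windows are chr11:59810040-59810289 (minus strand) for Flcn, chr11:54437929-54438178 (plus strand) for Fnip1, chr3:79567680-79567929 (minus strand) for Fnip2 and chr4:123917183-123917432 (plus strand) for Rragc. These windows end at RefSeq starts, which differ from the GENCODE starts behind the gene positions given here, and 117 bases of the Fnip2 window lie within the gene as GENCODE places it.
Flcn: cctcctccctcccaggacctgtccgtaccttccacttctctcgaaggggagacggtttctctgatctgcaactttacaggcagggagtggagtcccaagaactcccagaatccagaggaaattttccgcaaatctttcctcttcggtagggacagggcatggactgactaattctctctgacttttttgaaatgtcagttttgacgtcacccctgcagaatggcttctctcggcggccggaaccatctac
Fnip1: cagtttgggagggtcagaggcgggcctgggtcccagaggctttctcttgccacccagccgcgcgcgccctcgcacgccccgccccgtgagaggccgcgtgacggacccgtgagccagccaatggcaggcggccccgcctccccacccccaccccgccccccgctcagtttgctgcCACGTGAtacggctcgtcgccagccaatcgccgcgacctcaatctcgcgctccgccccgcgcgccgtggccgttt
Fnip2: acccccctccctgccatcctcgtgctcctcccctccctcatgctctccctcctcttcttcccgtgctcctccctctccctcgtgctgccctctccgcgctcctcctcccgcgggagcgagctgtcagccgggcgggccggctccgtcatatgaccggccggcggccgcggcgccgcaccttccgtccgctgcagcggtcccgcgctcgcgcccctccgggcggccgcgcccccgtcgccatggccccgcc
Rragc: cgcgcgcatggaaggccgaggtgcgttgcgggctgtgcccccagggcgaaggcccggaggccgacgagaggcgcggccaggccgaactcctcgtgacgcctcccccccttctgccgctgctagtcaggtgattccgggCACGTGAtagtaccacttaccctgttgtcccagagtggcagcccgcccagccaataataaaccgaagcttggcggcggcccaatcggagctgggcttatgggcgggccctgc
The motif starts 75 bases before the start of Fnip1 and 112 bases before that of Rragc, and these letters are not in the Flcn and Fnip2 windows. Of 47 members with a RefSeq promoter entry, 9 (19.1%) hold CACGTG in such a window, counting any of a gene's annotated starts, and 8 of these hold it as TCACGTG on either strand. Among 9945 genes tested that have an entry, 9.90% hold CACGTG and 5.79% hold TCACGTG, and among all 27025 genes with an entry 6.86% and 3.58%. The members are Eif4e, Fnip1, Lamtor1, Lamtor4, Rheb, Rragb, Rragc and Sgk1 for TCACGTG, and Tbc1d7 in addition for CACGTG. Of the 8 members that rose, Fnip1 and Rragc hold the motif. A match of letters is a description and not a binding site.

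All 3 genes of the folliculin complex rose in CKO ovaries. Flcn (chromosome 11, 59791408 to 59810016, minus strand, mm10) was at 22.4, 18.4, 17.9, 17.6 and 20.5 FPKM in CKO replicates 1 to 5, against 8.50 to 13.6 FPKM in WT with a median of 11.0 FPKM. Every CKO library lay above every WT library, and the group means were 19.4 ± 2.03 FPKM in CKO (SD, n = 5) and 11.0 ± 1.55 FPKM in WT (SD, n = 7). Its log2 fold change was 0.77 ± 0.11 (SE, adjusted p = 0.00067, limma). Fnip2 (chromosome 3, 79455974 to 79567796, minus strand) was the member with the largest called log2 fold change, 0.89 ± 0.16 (SE, adjusted p = 0.00213, limma). It was at 8.26, 4.98, 6.19, 5.03 and 9.25 FPKM in CKO replicates 1 to 5, against 2.51 to 3.68 FPKM in WT with a median of 2.99 FPKM. The groups did not overlap, and the CKO values were spread over a wider range than those of WT. Fnip1 (chromosome 11, 54438199 to 54518235, plus strand) was at 16.4, 17.9, 18.1, 13.1 and 19.0 FPKM in CKO replicates 1 to 5, against 8.54 to 14.0 FPKM in WT with a median of 10.2 FPKM. CKO replicate 4 lay below 2 WT libraries, and the other 4 CKO libraries lay above all WT libraries. Its log2 fold change was 0.61 ± 0.14 (SE, adjusted p = 0.00767, limma). These 3 calls were kept in each of the 12 fits that leave out 1 library, with adjusted p of at most 0.0236 (limma). In the exact two-sided Wilcoxon test Flcn and Fnip2 passed and Fnip1 did not (adjusted p = 0.0682). The authors' deposited table lists a q of 0.0006 for each of Flcn, Fnip1 and Fnip2.

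The highest CKO values of Flcn and Fnip2 were in replicates 1 and 5, which also had the highest sums of the 10 macrophage markers, 5124 and 5718 FPKM, against 1964 to 2697 FPKM in the other 3 CKO libraries. Lyz2 (2248 and 2670 FPKM) and Ctsd (1560 and 1793 FPKM) were the largest parts of these 2 sums. Not all of the list followed them. Csf1r was at 17.2, 10.2, 11.8, 17.4 and 14.4 FPKM in CKO replicates 1 to 5, and Adgre1 at 4.45, 2.92, 3.11, 5.99 and 2.93 FPKM. The other markers of the list were highest within CKO in replicates 1 and 5. In these 2 replicates the sums of 4 erythroid markers were 248 and 175 FPKM, against 7.65 to 63.5 FPKM in the other 3 CKO libraries and 2.86 to 158 FPKM in WT. These sums are an uncertain measure of blood RNA, because Hbb-bs was listed either at 0.0297 to 0.0334 FPKM or at 50.4 to 144 FPKM. Hbb-bt was at 75.4 and 66.7 FPKM in CKO replicates 1 and 5, against at most 11.3 FPKM in any other library. Without these 2 libraries Flcn and Fnip2 still passed, with log2 fold changes of 0.68 and 0.64 (adjusted p = 0.00862 and 0.0221, limma). Fnip1 had a log2 fold change of 0.57 without them and no longer passed (adjusted p = 0.0529, limma), and 0.55 without CKO replicates 2 and 3, which had the highest Ovgp1 (adjusted p = 0.0534, limma). Among all 51 members tested, 7 were highest within CKO in replicates 1 and 5, namely Akt1s1, Lamtor1, Lamtor4, Flcn, Fnip2, Castor1 and Tfeb, or 13.7%, against 14.4% of all genes tested. Among the 8 members that rose, these were 3 (37.5%), Flcn, Fnip2 and Castor1. The share among all 1145 genes that rose was not counted, so the 14.4% is no background for these 3. Beyond these values, the part of macrophage or blood cell RNA in the rises was not tested.

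**Figure D2:**
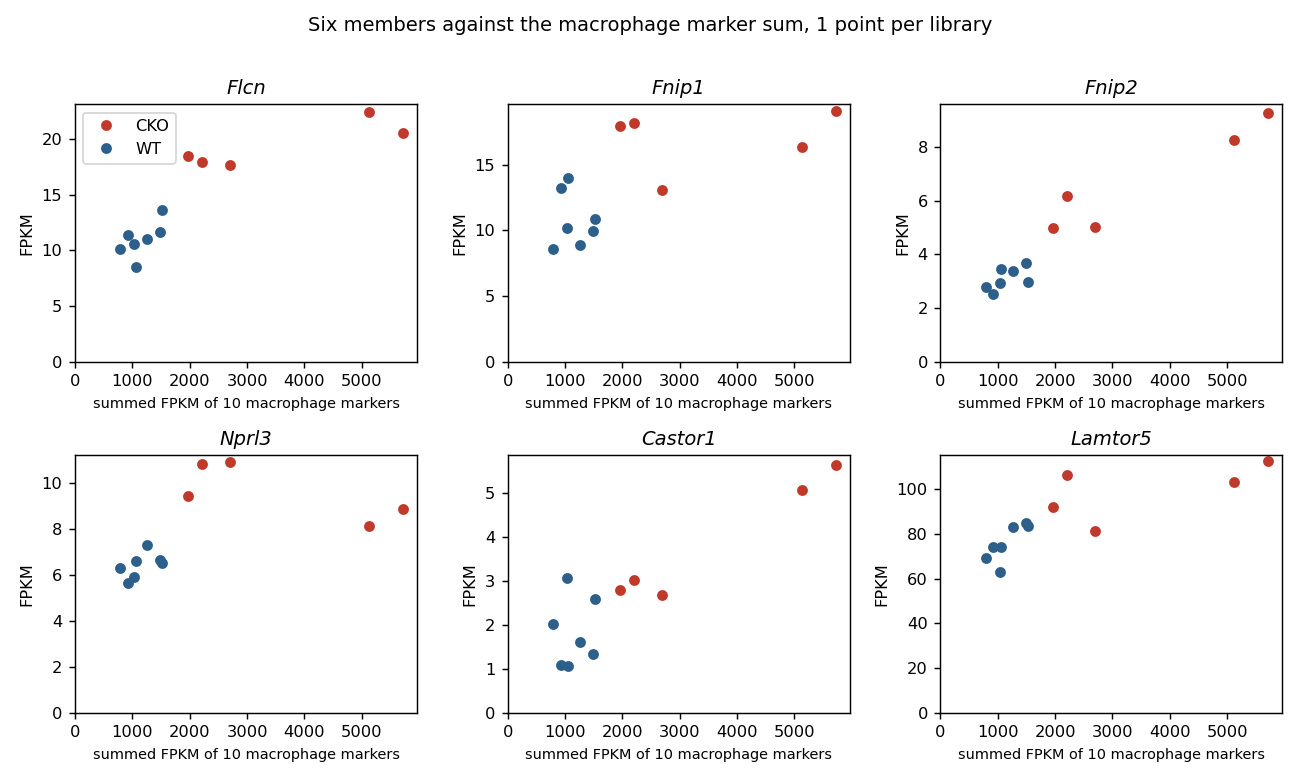
FPKM of Flcn, Fnip1, Fnip2, Nprl3, Castor1 and Lamtor5 (y axes) against the summed FPKM of 10 macrophage markers (x axes), with 1 point per library in red for CKO and blue for WT. The CKO libraries with sums of 5124 and 5718 FPKM have the highest Flcn, Fnip2 and Castor1 values and the lowest Nprl3 values of the CKO group, and the other 3 CKO libraries lie above all WT libraries for Flcn, Fnip2 and Nprl3.

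GATOR1 is the complex of Depdc5, Nprl2 and Nprl3 that switches off the RagA and RagB GTPases when amino acids are scarce, and its subunits did not move together. Nprl3 (chromosome 11, 32225628 to 32267707, minus strand) rose, at 8.14, 9.45, 10.8, 10.9 and 8.87 FPKM in CKO replicates 1 to 5, against 5.64 to 7.31 FPKM in WT with a median of 6.52 FPKM. The groups did not overlap, and here replicates 1 and 5 were the lowest of the CKO libraries. Nprl3 had a log2 fold change of 0.52 ± 0.11 (SE, adjusted p = 0.00566, limma), kept in all 12 fits that leave out 1 library, and 0.62 without CKO replicates 1 and 5 (adjusted p = 0.00969, limma). Nprl3 overlaps Mpg on the opposite strand, and whether the authors' quantification used strand was not given in the sources used here. Without strand, reads from the shared stretch cannot be told apart. Mpg averaged 17.1 FPKM in CKO and 18.9 FPKM in WT. Depdc5 was at 1.54, 1.76, 1.72, 2.003 and 1.87 FPKM in CKO replicates 1 to 5, against 2.05 to 2.94 FPKM in WT with a median of 2.36 FPKM. Its groups did not overlap, but at these low levels it did not pass (log2 fold change -0.31, SE 0.13, adjusted p = 0.122, limma). It passed in limma without the trend (adjusted p = 0.04) and in the exact two-sided Wilcoxon test (adjusted p = 0.0327). Nprl2, listed at 0 in 1 CKO and 1 WT library, ranged up to 1.96 FPKM in CKO and 2.52 FPKM in WT and did not pass (adjusted p = 0.537, limma).

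Castor1, the arginine sensor that binds GATOR2, rose, while the sestrins did not pass. Castor1 (chromosome 11, 4218225 to 4222409, plus strand) was at 5.08, 2.80, 3.03, 2.68 and 5.63 FPKM in CKO replicates 1 to 5, against 1.06 to 3.07 FPKM in WT with a median of 1.60 FPKM. Only CKO replicates 1 and 5 lay above all WT libraries, and depth limits the values at these low levels. For Castor1 the log2 fold change was 0.78 ± 0.22 (SE, adjusted p = 0.0285, limma), and 0.49 without those 2 libraries (adjusted p = 0.226, limma). The call was also lost without each of CKO replicates 1 and 5 and WT replicates 2, 3 and 4, with adjusted p between 0.0504 and 0.0797 (limma). Sestrins are stress-induced inhibitors of mTORC1, of which Sesn2 and Sesn1 bind leucine. Sesn1 averaged 32.5 ± 5.20 FPKM in CKO (SD, n = 5) and 33.1 ± 2.95 FPKM in WT (SD, n = 7), and Sesn2 averaged 6.88 ± 1.06 FPKM in CKO and 6.90 ± 1.47 FPKM in WT. Sesn3 was at 3.90, 4.59, 5.15, 9.39 and 6.75 FPKM in CKO replicates 1 to 5, against 4.54 to 12.7 FPKM in WT with a median of 10.9 FPKM. The other 5 WT libraries lay above all CKO libraries, while WT replicate 3 and the unnumbered WT library lay among the lowest CKO values. Sesn3 did not pass (log2 fold change -0.57, SE 0.27, adjusted p = 0.176, limma), whereas the authors' deposited table lists a q of 0.0338.

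**Figure D3:**
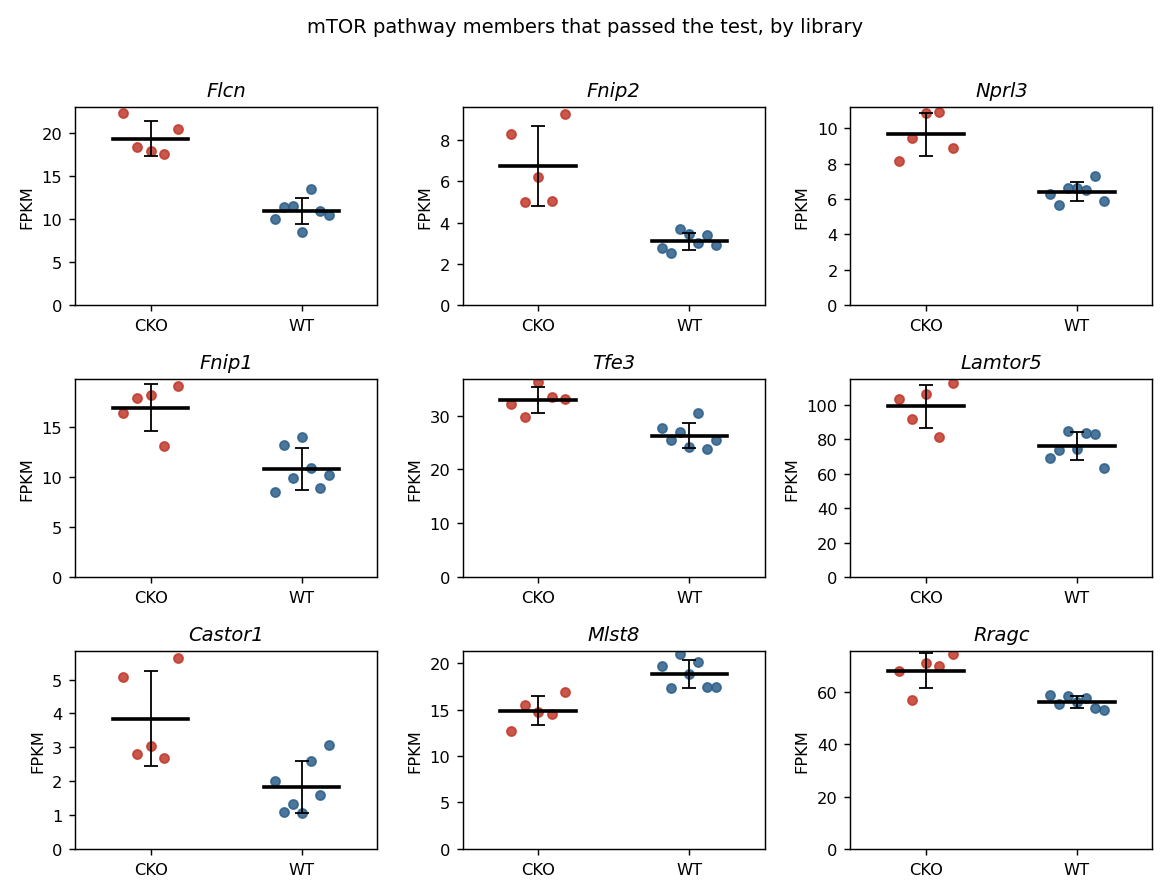
FPKM (y axes) of the 9 members that passed the test, with 1 point per library in red for CKO (n = 5) and blue for WT (n = 7), and with black lines for the mean and 1 SD. Flcn, Fnip2 and Nprl3 show CKO points above all WT points, and Mlst8 shows CKO points below all WT points.

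The Rag GTPases act as pairs of RagA or RagB with RagC or RagD. Rragc (chromosome 4, 123917446 to 123936997, plus strand) rose, at 67.9, 57.1, 71.1, 69.9 and 74.5 FPKM in CKO replicates 1 to 5, against 53.0 to 58.7 FPKM in WT with a median of 56.0 FPKM. CKO replicate 2 lay within the WT range and the other 4 CKO libraries above it. Rragc had a log2 fold change of 0.27 ± 0.08 (SE, adjusted p = 0.0384, limma). Among the 12 fits with 1 library left out, the call held only without CKO replicate 2 or WT replicate 3, and the other 10 gave adjusted p of 0.0541 to 0.0981 (limma). Rragd was at 17.8, 21.2, 15.1, 11.8 and 15.6 FPKM in CKO replicates 1 to 5, against 8.18 to 15.5 FPKM in WT with a median of 11.0 FPKM. The ranges overlapped and it did not pass (log2 fold change 0.44, SE 0.16, adjusted p = 0.0767, limma), except without CKO replicate 4 or WT replicate 2 (adjusted p = 0.0382 and 0.046, limma). The authors' deposited table lists a q of 0.0234 for Rragd. Rraga, the most abundant Rag transcript, averaged 136 ± 7.66 FPKM in CKO (SD, n = 5) and 151 ± 10.4 FPKM in WT (SD, n = 7) and did not pass (adjusted p = 0.275, limma). Rragb averaged 3.14 ± 0.387 FPKM in CKO and 3.44 ± 1.45 FPKM in WT, the lowest of the 4.

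Ragulator is the scaffold of 5 LAMTOR proteins that anchors the Rags to the lysosome. Lamtor5 (chromosome 3, 107278858 to 107284082, plus strand) rose, at 103, 92.0, 106, 81.1 and 113 FPKM in CKO replicates 1 to 5, against 63.0 to 85.0 FPKM in WT with a median of 74.1 FPKM. CKO replicate 4 lay within the WT range and the other 4 CKO libraries above it. The log2 fold change was 0.38 ± 0.11 (SE, adjusted p = 0.0262, limma), and the call was lost without each of CKO replicates 1, 3 and 5 and WT replicate 1 (adjusted p between 0.0541 and 0.0716, limma). Lamtor1, Lamtor3 and Lamtor4 had log2 fold changes of 0.20, 0.21 and 0.29 and did not pass (adjusted p = 0.26, 0.234 and 0.375, limma). Lamtor2 was listed at far lower values than its partners, at 3.85, 3.33, 7.61, 0 and 5.36 FPKM in CKO replicates 1 to 5, and between 0 and 10.2 FPKM in WT with a median of 1.33 FPKM. It was listed at 0 in 1 CKO and 2 WT libraries in which Lamtor1 was above 80 FPKM, so a failed estimate cannot be told apart from low expression, and its log2 fold change was 0.58 ± 0.62 (SE).

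The subunits of the mTOR complexes were measured at very different levels, and 1 of 9 passed the test. Mtor (chromosome 4, 148448611 to 148557683, plus strand) was at 4.73, 4.63, 5.88, 4.95 and 4.89 FPKM in CKO replicates 1 to 5, against 3.84 to 5.55 FPKM in WT with a median of 4.79 FPKM. Its CKO values lay within or just above the WT range. The interval of its log2 fold change was -0.18 to 0.35 (95%, limma), and the exact two-sided permutation test gave p = 0.4053, where 0.0013 is the smallest possible. Because Gdf9-Cre acts in oocytes, the Mtor level of the ovary as a whole is no check of the genotype labels. Mtor overlaps Angptl7 on the opposite strand, which averaged 5.25 FPKM in CKO and 4.19 FPKM in WT. Mlst8, a subunit of both complexes that binds the kinase domain (chromosome 17, 24473551 to 24479078, minus strand), fell. It was at 12.7, 15.5, 14.8, 14.6 and 16.9 FPKM in CKO replicates 1 to 5, against 17.4 to 20.9 FPKM in WT with a median of 18.8 FPKM. The groups did not overlap, and the gap between CKO replicate 5 and the lowest WT library was small. The log2 fold change was -0.32 ± 0.10 (SE, adjusted p = 0.0331, limma). The call was lost without each of CKO replicates 1, 3 and 4 and WT replicates 1, 3, 4 and 6, with adjusted p between 0.057 and 0.0889 (limma).

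Rptor, which encodes the defining subunit of mTORC1, was at 8.52, 6.89, 8.90, 8.76 and 7.09 FPKM in CKO replicates 1 to 5, against 7.46 to 11.7 FPKM in WT with a median of 9.95 FPKM. Rictor, which encodes that of mTORC2, was at 5.70, 10.1, 5.65, 6.08 and 6.21 FPKM in CKO replicates 1 to 5, against 5.63 to 8.92 FPKM in WT with a median of 7.05 FPKM. Rptor ran low in CKO with overlap, and Rictor was lower in 4 CKO libraries than the WT median while CKO replicate 2 was the highest of all 12. Neither passed, with log2 fold changes of -0.23 (SE 0.13) and -0.09 (SE 0.15) and adjusted p of 0.241 and 0.736 (limma). Without CKO replicate 2 the value for Rictor was -0.23 (adjusted p = 0.238, limma). The inhibitory subunit Akt1s1 was the most abundant of the 9, at 92.5 ± 6.74 FPKM in CKO (SD, n = 5) and 105 ± 8.81 FPKM in WT (SD, n = 7). Deptor, the other inhibitory subunit, averaged 30.6 ± 11.8 FPKM in CKO and 28.6 ± 4.06 FPKM in WT, with a CKO range of 17.7 to 46.5 FPKM. The mTORC2 subunits Mapkap1, Prr5 and Prr5l averaged 23.9, 10.5 and 2.27 FPKM in CKO and 22.7, 8.80 and 2.67 FPKM in WT, and did not pass. Levels per length thus ran from Prr5l through Mtor, Rictor, Prr5 and Rptor to Mlst8, Mapkap1, Deptor and Akt1s1 in WT ovaries. Rictor, Prr5 and Rptor overlapped in range there, as did Mlst8 and Mapkap1, and Mapkap1 and Deptor.

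**Figure D4:**
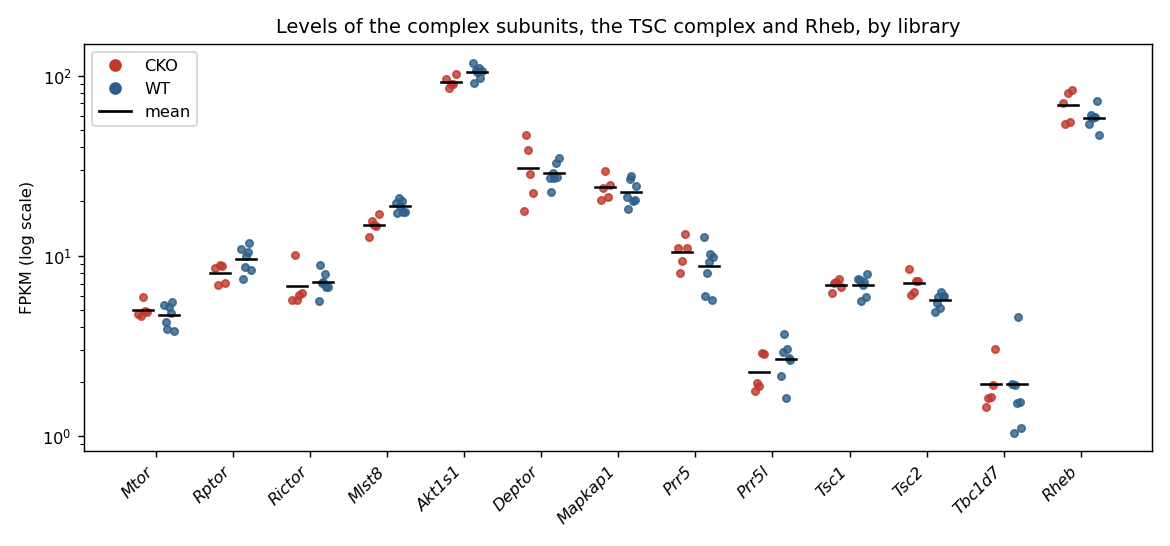
FPKM on a log scale (y axis) of the 9 complex subunits, the 3 TSC complex genes and Rheb, with 1 point per library in red for CKO and blue for WT and black lines at the means. Mtor lies near 5 FPKM in both groups, Akt1s1 near 100 FPKM, and Mlst8 is the only 1 of the 13 without overlap between the groups.

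The TSC complex turns Rheb off and so holds mTORC1 back. Tsc1 was at 6.23, 7.05, 7.16, 7.42 and 6.70 FPKM in CKO replicates 1 to 5, against 5.60 to 7.88 FPKM in WT with a median of 7.12 FPKM. Tsc2, which carries the GTPase-activating activity, was at 8.40, 6.06, 6.29, 7.27 and 7.23 FPKM in CKO replicates 1 to 5, against 4.84 to 6.29 FPKM in WT with a median of 5.93 FPKM. Tsc1 overlapped fully between the groups, and 3 of 5 CKO libraries lay above all WT libraries for Tsc2, which did not pass (log2 fold change 0.27, SE 0.11, adjusted p = 0.127, limma). Tsc2 overlaps Pkd1 on the opposite strand. Rheb was at 70.1, 54.1, 80.0, 55.0 and 83.0 FPKM in CKO replicates 1 to 5, against 47.0 to 72.4 FPKM in WT with a median of 58.5 FPKM. Its ranges overlapped and it did not pass (log2 fold change 0.21, SE 0.13, adjusted p = 0.3, limma). The third subunit, Tbc1d7, averaged 1.93 ± 0.634 FPKM in CKO (SD, n = 5) and 1.94 ± 1.20 FPKM in WT (SD, n = 7). Ddit4, a stress-induced activator of the TSC complex, averaged 80.0 ± 17.2 FPKM in CKO and 82.9 ± 7.36 FPKM in WT, and its relative Ddit4l averaged 36.5 ± 5.47 FPKM in CKO and 47.7 ± 16.7 FPKM in WT. Neither passed (adjusted p = 0.754 and 0.261, limma).

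None of the 7 translation effectors tested passed, although the pair of 4E-BP genes, whose proteins block the cap-binding factor eIF4E, had estimates of opposite sign. Eif4ebp2 was at 18.0, 38.3, 43.0, 34.7 and 22.5 FPKM in CKO replicates 1 to 5, against 37.8 to 52.3 FPKM in WT with a median of 42.5 FPKM. CKO replicates 1, 4 and 5 lay below all WT libraries. Its log2 fold change of -0.56 (SE 0.19) missed the threshold (adjusted p = 0.0552, limma), and it passed without CKO replicate 2 or 3 (adjusted p = 0.0403 and 0.0252, limma) and with median scaling or array weights (adjusted p = 0.0484 and 0.0407, limma). The authors' deposited table lists a q of 0.0147 for Eif4ebp2. Eif4ebp1 was at 116, 66.5, 116, 88.9 and 110 FPKM in CKO replicates 1 to 5, against 60.5 to 106 FPKM in WT with a median of 77.7 FPKM, and did not pass (log2 fold change 0.30, SE 0.15, adjusted p = 0.208, limma), except without CKO replicate 2 (adjusted p = 0.0417, limma). The ratio of Eif4ebp1 to Eif4ebp2, formed after the values were seen and therefore not tested, was 6.47, 1.74, 2.69, 2.56 and 4.89 in CKO replicates 1 to 5, against 1.18 to 2.17 in WT. It was highest in CKO replicates 1 and 5. Eif4e itself averaged 63.7 ± 1.94 FPKM in CKO (SD, n = 5) and 66.3 ± 6.49 FPKM in WT (SD, n = 7). The S6 kinase gene Rps6kb1 averaged 17.8 ± 1.65 FPKM in CKO and 18.5 ± 4.23 FPKM in WT. Its relative Rps6kb2 was too low to be tested, with at most 1.74 FPKM in CKO and 1.80 FPKM in WT. Eif4b, a helicase cofactor, Pdcd4, an inhibitor of the helicase eIF4A, and Larp1, a binder of mRNAs for ribosomal proteins, had log2 fold changes of -0.12, 0.08 and 0.01.

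Of the autophagy and lysosome effectors, Tfe3 rose. Tfe3, a transcription factor that mTORC1 keeps out of the nucleus (chromosome X, 7762560 to 7775202, plus strand), was at 32.1, 29.6, 36.2, 33.4 and 33.1 FPKM in CKO replicates 1 to 5, against 23.8 to 30.4 FPKM in WT with a median of 25.5 FPKM. CKO replicate 2 lay below the highest WT library, and the other 4 CKO libraries above all WT libraries. The log2 fold change was 0.32 ± 0.09 (SE, adjusted p = 0.0246, limma), and the call was lost without each of CKO replicates 3, 4 and 5 and WT replicate 4 (adjusted p between 0.0507 and 0.0695, limma). Tfeb, its close relative, was at 14.9, 10.2, 14.6, 14.1 and 17.3 FPKM in CKO replicates 1 to 5, against 4.55 to 12.9 FPKM in WT with a median of 10.8 FPKM. In 4 of 5 CKO libraries it lay above all WT libraries, and Tfeb did not pass (log2 fold change 0.49, SE 0.20, adjusted p = 0.114, limma). The genes of the ULK1 complex, which starts autophagy, did not pass. Ulk1 averaged 12.6 ± 1.29 FPKM in CKO (SD, n = 5) and 12.9 ± 1.31 FPKM in WT (SD, n = 7), Atg13 averaged 23.4 ± 2.69 FPKM in CKO and 24.0 ± 1.82 FPKM in WT, and Rb1cc1 averaged 12.7 ± 3.10 FPKM in CKO and 14.9 ± 2.35 FPKM in WT. The 95% interval of the log2 fold change of Ulk1 was -0.26 to 0.18.

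The calls of the other members were compared without the libraries that stood apart. Without CKO replicates 1 and 5, the log2 fold changes were 0.22 for Rragc, 0.29 for Lamtor5, 0.32 for Tfe3 and -0.31 for Mlst8, and these 4 calls were lost (adjusted p = 0.172, 0.16, 0.0842 and 0.0844, limma). Without CKO replicates 2 and 3, Lamtor5, Tfe3 and Mlst8 had log2 fold changes of 0.37, 0.32 and -0.34 and did not pass (adjusted p = 0.0797, 0.06 and 0.0773, limma), while Flcn, Fnip2, Nprl3, Castor1 and Rragc passed. Of the 9 called members, Rragc was the only member whose call was lost without the unnumbered WT library (log2 fold change 0.26, adjusted p = 0.0546, limma). Fits with fewer libraries are less precise. In the exact two-sided Wilcoxon test over all 12 libraries, Castor1, Rragc and Lamtor5 did not pass (adjusted p = 0.0947 each), and in limma without the trend Rragc did not pass (adjusted p = 0.0631). Of the 6 called members outside the folliculin complex, none has a q under 0.05 in the authors' deposited table. The q-values listed are 0.168 for Mlst8, 0.137 for Nprl3, 0.0886 for Lamtor5, 0.214 for Rragc and 0.158 for Tfe3. Castor1 is listed at 1, as are other weakly expressed members such as Nprl2 and Depdc5. Such a value can stand for a gene that was not tested, and nothing is concluded from it. Of the 51 members tested, 6 had a q under 0.05 in the authors' deposited table, and 3 of these were also called here. Among all 13168 genes tested, 1954 (14.8%) had such a q, a share that the 6 members do not exceed.

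Among the kinases, Pdpk1, which activates AKT, SGK1 and S6 kinase, averaged 14.6 ± 2.90 FPKM in CKO (SD, n = 5) and 18.5 ± 1.91 FPKM in WT (SD, n = 7). It did not pass (log2 fold change -0.33, SE 0.12, adjusted p = 0.0862, limma), except without CKO replicate 2 and with array weights (adjusted p = 0.0257 and 0.038, limma). Sgk1, a target of mTORC2, was the most abundant member in both groups, at 106.8 to 346 FPKM in CKO and 106 to 342 FPKM in WT. Stk11, the kinase LKB1 that activates AMPK, averaged 37.6 ± 4.65 FPKM in CKO and 45.6 ± 6.36 FPKM in WT, a difference that did not pass (adjusted p = 0.138, limma), but passed when WT replicate 2 was left out (adjusted p = 0.0467, limma). The AMPK catalytic subunits Prkaa1 and Prkaa2 averaged 25.0 and 4.07 FPKM in CKO and 21.9 and 4.03 FPKM in WT, and did not pass.

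Around these members, a further list of 63 genes of insulin, AKT, AMPK, GATOR2 and autophagy signalling was compared, of which 62 could be tested. Of these, 5 rose and 5 fell (8.06% each way), against 8.7% and 7.59% of all genes tested. Ndrg1, whose protein is a substrate of SGK1, was at 40.0, 42.9, 37.6, 45.3 and 31.5 FPKM in CKO replicates 1 to 5, against 9.79 to 21.8 FPKM in WT with a median of 16.7 FPKM. All CKO libraries lay above all WT libraries (log2 fold change 1.25, SE 0.17, adjusted p = 0.000486, limma). Foxo1, a transcription factor that AKT inhibits and that is abundant in granulosa cells of growing follicles, was at 64.9, 53.9, 45.2, 66.3 and 35.9 FPKM in CKO replicates 1 to 5, against 88.6 to 187 FPKM in WT with a median of 116 FPKM. It fell without overlap (log2 fold change -1.26, SE 0.21, adjusted p = 0.0015, limma), beside the fall of all 10 granulosa cell markers, whose part in this result was not tested. Ndrg1 and Foxo1 passed in every fit that leaves out 1 library.

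The other rises were in Inpp5d, Tfec, Mitf and Rps6. Inpp5d, the lipid phosphatase SHIP1 of blood cells, was at 7.43, 3.90, 4.03, 6.82 and 5.96 FPKM in CKO replicates 1 to 5, against 1.94 to 3.86 FPKM in WT with a median of 2.82 FPKM. Tfec, a relative of TFEB and TFE3 expressed in macrophages, was at 5.20, 1.19, 1.93, 2.28 and 4.50 FPKM in CKO replicates 1 to 5, and between 0 and 2.04 FPKM in WT with a median of 0.435 FPKM. Both were high in CKO replicate 1, and Tfec was highest in CKO replicates 1 and 5, as the macrophage marker sums were. Their log2 fold changes were 0.78 (SE 0.19) and 1.32 (SE 0.34), with adjusted p of 0.0131 and 0.0162, and without CKO replicates 1 and 5 they were 0.62 and 0.88 and did not pass (adjusted p = 0.106 and 0.148, limma). Mitf, the founding gene of that family, was at 6.27, 6.26, 5.24, 5.80 and 6.55 FPKM in CKO replicates 1 to 5, against 2.91 to 5.08 FPKM in WT with a median of 4.45 FPKM. It rose without overlap (log2 fold change 0.48, SE 0.14, adjusted p = 0.033, limma), and the call was lost without each of CKO replicates 1, 2, 4 and 5 and WT replicates 2, 4 and 7 (adjusted p between 0.0545 and 0.0759, limma). Mitf also did not pass without CKO replicates 1 and 5 or without CKO replicates 2 and 3 (adjusted p = 0.155 and 0.0725, limma). Rps6, the ribosomal protein phosphorylated by S6 kinase, was at 50.2, 42.6, 41.7, 38.0 and 45.1 FPKM in CKO replicates 1 to 5, against 29.3 to 41.3 FPKM in WT with a median of 35.2 FPKM. Its adjusted p was 0.0428 (limma), and among the 12 fits with 1 library left out the call held in 2, those without CKO replicate 4 or WT replicate 1, with adjusted p of 0.052 to 0.112 in the others. It did not pass with median scaling or without the trend (adjusted p = 0.0501 and 0.0629, limma), nor without CKO replicates 1 and 5 or 2 and 3 (adjusted p = 0.232 and 0.0902, limma). Tfec did not pass in the exact two-sided Wilcoxon test (adjusted p = 0.0947).

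**Figure D5:**
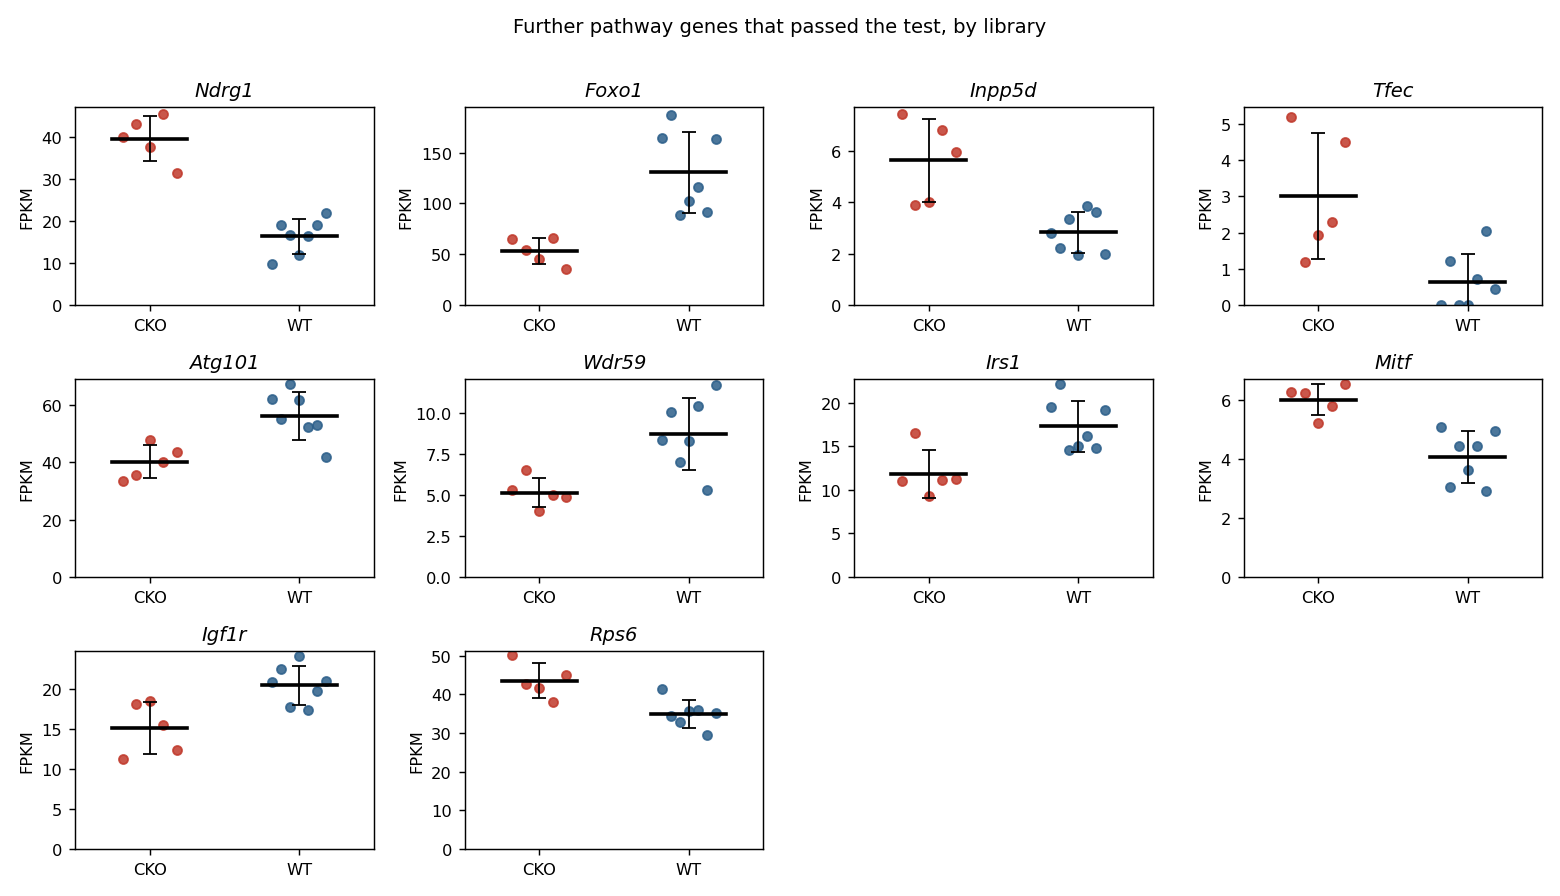
FPKM (y axes) of the 10 further pathway genes that passed the test, with 1 point per library in red for CKO (n = 5) and blue for WT (n = 7), and with black lines for the mean and 1 SD. Ndrg1, Inpp5d and Mitf show CKO points above all WT points, and Foxo1 shows CKO points below all WT points.

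The other falls were in the growth factor receptor gene Igf1r, its adaptor Irs1, the GATOR2 gene Wdr59 and the ULK1 complex gene Atg101. Wdr59 was at 5.29, 6.54, 4.04, 4.97 and 4.86 FPKM in CKO replicates 1 to 5, against 5.31 to 11.7 FPKM in WT with a median of 8.31 FPKM. Atg101 was at 33.5, 35.7, 47.8, 40.3 and 43.7 FPKM in CKO replicates 1 to 5, against 42.1 to 67.5 FPKM in WT with a median of 55.1 FPKM. Both ranges overlapped with those of WT, and the log2 fold changes were -0.64 (SE 0.17) and -0.47 (SE 0.12), with adjusted p of 0.0202 and 0.0181 (limma). The call for Wdr59 was lost without CKO replicate 3 (adjusted p = 0.0561, limma) and that for Atg101 without CKO replicate 1 (adjusted p = 0.0507, limma). Without CKO replicates 1 and 5, Wdr59 and Atg101 did not pass (adjusted p = 0.0815 and 0.0784, limma), nor did Wdr59 without CKO replicates 2 and 3 (adjusted p = 0.0509, limma). Atg101 also did not pass in the exact two-sided Wilcoxon test (adjusted p = 0.0682). Irs1 was at 11.1, 16.6, 9.31, 11.1 and 11.3 FPKM in CKO replicates 1 to 5, against 14.5 to 22.1 FPKM in WT with a median of 16.1 FPKM. Igf1r was at 11.3, 18.1, 18.5, 15.4 and 12.3 FPKM in CKO replicates 1 to 5, against 17.4 to 24.1 FPKM in WT with a median of 20.8 FPKM. CKO replicate 2 lay within the WT range for both, as did CKO replicate 3 for Igf1r. Their log2 fold changes were -0.52 (SE 0.14) and -0.43 (SE 0.13), with adjusted p of 0.0251 and 0.0414 (limma). The call for Irs1 was lost without each of CKO replicates 1, 3, 4 and 5 and WT replicate 1 (adjusted p between 0.0521 and 0.071, limma), and that for Igf1r in 8 of the 12 fits, those without CKO replicates 1, 4 and 5, WT replicates 1, 2, 4 and 7 and the unnumbered WT library (adjusted p between 0.0565 and 0.11, limma). Igf1r was lowest in CKO replicates 1 and 5, and without both its log2 fold change was -0.22 (adjusted p = 0.294, limma), while that of Irs1 was -0.48 (adjusted p = 0.116, limma). In the exact two-sided Wilcoxon test neither passed (adjusted p = 0.13 each), and Igf1r did not pass in limma without the filter or without the trend (adjusted p = 0.0526 and 0.0509). Of the genes that did not pass, Wdr24, of GATOR2, and Camkk2, an activator of AMPK, had the smallest p, with log2 fold changes of -0.34 and -0.33 (adjusted p = 0.0769 and 0.0899, limma). Wdr24 passed without WT replicate 2 (adjusted p = 0.0398, limma) and Camkk2 without CKO replicate 3 (adjusted p = 0.0299, limma). Both also passed without CKO replicates 2 and 3, and Wdr24 with array weights.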

How the data were processed

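Whole-ovary RNA was sequenced as 12 poly(A)-selected paired-end libraries (5 CKO and 7 WT). Per the labels, the authors aligned trimmed reads to mm10 with TopHat2 2.0.13 and computed FPKM with Cufflinks 2.2.1. The deposited log2 fold changes, p-values and q-values are the authors' Cuffdiff results. The deposited fold change runs CKO over WT, within 0.01 in 99.9% of 13064 genes compared, although its column name reads the other way. Only the q-values are quoted. The strand setting, the scaling and the annotation were not given in the sources used here.

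Values were analysed as log2(FPKM + 1) in R 4.3.3, which makes fold changes of weakly expressed genes too small. Genes with at least 1 FPKM in at least 5 libraries (13168) were tested with limma 3.58.1 (trended, two-sided, group as the only term), Benjamini-Hochberg adjusted, threshold 0.05, and the fit was tested on simulated data. Positions are from GENCODE M21. Members and lists were chosen with earlier results of these data known. Values per library are given for members called, for Mtor, Rptor, Rictor, Mlst8, Tsc1, Tsc2 and Rheb, and for members with an absolute log2 fold change of at least 0.5. Values per library of Depdc5, Rragd, Tfeb and Eif4ebp1 were added after they were seen. From the further list, called genes and the 2 others of smallest p are named. Alternatives covered the pseudocount, the filter, scaling, the spread model, a Wilcoxon test, a replicate block and libraries left out.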

Additional observations from a re-analysis of the deposited data

Results flagged for a closer look

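In 11 of the 128 groups of 5 or 7 libraries examined, 1 library stood apart from the rest by a gap that is large against the range of its group. Chance alone would give about 1 in 20 such groups if the values were normally distributed. FPKM need not be, and the groups share the same libraries, so the 11 flags cannot be judged against that rate. In CKO, Mtor was at 5.88 FPKM in replicate 3, against 4.63 to 4.95 FPKM in the other 4. Rictor was at 10.1 FPKM in CKO replicate 2, against 5.65 to 6.21 FPKM in the others, and Irs1 was at 16.6 FPKM in the same library, against 9.31 to 11.3 FPKM. Lamtor3 was at 101.3 FPKM in CKO replicate 3, against 70.0 to 78.9 FPKM. Sgk1 was at 106.8 FPKM in CKO replicate 1, against 285 to 346 FPKM.

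WT replicate 2 held 4 of the 6 flags in WT. Its values were 82.2 FPKM for Ddit4l, against 33.9 to 53.4 FPKM in the other WT libraries, 27.8 FPKM for Rps6kb1, against 15.5 to 18.4 FPKM, 80.7 FPKM for Eif4e, against 62.0 to 65.8 FPKM, and 4.55 FPKM for Tfeb, against 9.77 to 12.9 FPKM. Tbc1d7 was at 4.55 FPKM in WT replicate 6, against 1.04 to 1.94 FPKM. Lamtor2 was at 10.2 FPKM in WT replicate 3, against 0 to 4.17 FPKM.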

How the results depend on the processing

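With 8 members higher, 1 lower, 10 further genes and 2144 genes in all called, the members lower numbered 2 with median scaling, without the trend and with the exact Wilcoxon test, and 3 with array weights. The exact Wilcoxon test called 4 members higher, 6 further genes and 1425 genes in all. Without CKO replicates 1 and 5 these were 3, 2 and 1375, with 0 members lower, and without CKO replicates 2 and 3 the members higher numbered 5. Leaving out each library in turn gave 4 to 9 members higher, 0 to 3 lower, 5 to 9 further genes and 1665 to 2306 in all. Of the 9 called members, 4 (Flcn, Fnip1, Fnip2 and Nprl3) kept the call in all 12 such fits. Fewer libraries give less precise estimates, and the cause of each change was not tested. Samples of the same number do not pair by the labels, and their deviations correlated by -0.07 to 0.09. With the replicate block, over the 8 libraries of numbers 1 to 4, 2 members were higher, 0 lower, 4 further genes and 1378 genes in all were called, against 4, 0, 5 and 1608 in the same libraries without it. The members called with the block were Flcn and Castor1.

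Sign changes occurred in 14 members, none of them called, whose estimates were at most 0.0765 in size. The log2 fold changes were -0.016 (Deptor), 0.0347 (Rragb) and -0.0493 (Prkaa2) with array weights, -0.0015 (Sesn2) and -0.0005 (Prkaa2) with median scaling, 0.0068 (Rragb) with a pseudocount of 0.1, and -0.0012 (Sesn2) and 0.0695 (Ulk1) with the replicate block. Without the unnumbered WT library they were -0.0183 (Tbc1d7), 0.0825 (Rragb), -0.0735 (Sesn2), -0.0038 (Larp1) and -0.0092 (Prkaa2). Without CKO replicates 1 and 5 they were -0.034 (Tbc1d7), 0.0682 (Sesn1), -0.0342 (Sesn2), 0.0214 (Rps6kb1), 0.0388 (Ulk1) and 0.059 (Atg13). Without CKO replicates 2 and 3 they were -0.33 (Deptor), -0.0297 (Mapkap1), -0.0118 (Tsc1), -0.0015 (Pdcd4) and -0.157 (Prkaa2). Leaving out 1 numbered library gave ranges of -0.142 to 0.195 (Deptor), -0.001 to 0.126 (Mapkap1), -0.0287 to 0.0444 (Tsc1), -0.0712 to 0.215 (Tbc1d7), -0.201 to 0.0359 (Rragb), -0.118 to 0.0057 (Sesn1), -0.0353 to 0.0922 (Sesn2), -0.178 to 0.0228 (Ddit4), -0.0755 to 0.0708 (Rps6kb1), -0.0394 to 0.0566 (Larp1), -0.077 to 0.01 (Ulk1), -0.0757 to 0.0346 (Atg13) and -0.0951 to 0.0919 (Prkaa2). Depth limits Nprl2, Rps6kb2, Tbc1d7, Castor1, Depdc5, Lamtor2 and Tfec, which averaged a few FPKM or less in each group.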
